A study of Mus musculus with 2 samples.

Results

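The genes of the NF-κB subunits and their inhibitors were examined for peaks of PHLPP1-associated DNA in mouse bone marrow-derived macrophages. They are 10 of the 21887 protein-coding genes of the RefSeq table of GRCm38: the subunit genes Nfkb1, Nfkb2, Rela, Relb and Rel, the inhibitor genes Nfkbia, Nfkbib and Nfkbie, the kinase gene Ikbkb and the feedback inhibitor gene Tnfaip3. Every listed peak whose summit was at most 50 kb from an annotated end of one of these genes was taken, which gave 67 of 149349 peaks of the untreated library and 156 of 240661 peaks of the library from cells given IL-4. The genes were listed by their function, with earlier results of these data known. PHLPP1 is a protein phosphatase that acts on the kinase AKT, and the series asks where it lies on DNA with and without IL-4.

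The cells had been differentiated from marrow in M-CSF at 20 ng/ml and were either left untreated or given IL-4 at 20 ng/ml for 4 h. Both libraries were taken as wild type, from the design text and the extraction protocol, since the labels carry no genotype for single samples. The treatment protocol of both also names Phlpp1-deficient macrophages. The sources used here do not state strain, age or the number of animals. CUT&Tag was used, in which an antibody, here to PHLPP1, brings a transposase to chromatin that tags the DNA beside it. Each group had 1 library, so no difference between the groups has a replicate check, no test was made, and values stand side by side. No library without PHLPP1 or with a control antibody was analysed here.

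NF-κB transcription factors are dimers of Rel-family proteins. In resting cells IκB proteins hold them in the cytoplasm. A signal from a Toll-like or TNF receptor activates the IκB kinase, which marks IκB for destruction and frees the dimer to enter the nucleus. Several genes of the system are themselves switched on by NF-κB, among them Nfkbia and Tnfaip3, and so form a feedback loop. In macrophages the pathway drives the inflammatory programme, whereas IL-4 drives alternative activation.

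Several of these genes carried a peak at their start, and their promoters are shown here with the sites that fit the NF-κB consensus. RefSeq promoter windows, from 250 bases before to 50 after a transcription start in GRCm38.p6, were found for 7 of the 10 genes and 10 starts. Nfkb1, Relb and Ikbkb had no entry. Printed below are the 250 bases before the start, 5′ to 3′ on the strand of the gene, with matches to the NF-κB consensus in capitals. The first 4 genes had both an IL-4 peak at the start and a match, Rela had such a peak and no match, and Nfkbia had a match and no peak there. Nfkbib, which is not printed, also had an IL-4 peak at the start and no match.
Tnfaip3, chr10:19015411-19015660, minus strand: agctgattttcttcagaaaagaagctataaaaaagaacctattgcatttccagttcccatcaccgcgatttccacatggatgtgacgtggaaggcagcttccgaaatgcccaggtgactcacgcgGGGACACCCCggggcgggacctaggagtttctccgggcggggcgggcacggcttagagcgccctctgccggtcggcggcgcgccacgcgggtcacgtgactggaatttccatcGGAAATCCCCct
Rel, chr11:23770970-23771219, minus strand: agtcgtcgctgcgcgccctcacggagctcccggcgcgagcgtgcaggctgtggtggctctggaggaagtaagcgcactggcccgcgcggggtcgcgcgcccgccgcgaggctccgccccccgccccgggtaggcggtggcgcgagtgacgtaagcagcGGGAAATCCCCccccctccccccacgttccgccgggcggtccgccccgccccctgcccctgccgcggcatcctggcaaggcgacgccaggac
Nfkbie, chr17:45555450-45555699, plus strand: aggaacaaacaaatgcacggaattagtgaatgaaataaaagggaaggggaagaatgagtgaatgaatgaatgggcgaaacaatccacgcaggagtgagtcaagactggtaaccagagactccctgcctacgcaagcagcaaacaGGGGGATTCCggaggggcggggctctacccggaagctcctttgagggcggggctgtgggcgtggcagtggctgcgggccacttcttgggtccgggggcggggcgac
Nfkb2, its first listed start, chr19:46304487-46304736, plus strand: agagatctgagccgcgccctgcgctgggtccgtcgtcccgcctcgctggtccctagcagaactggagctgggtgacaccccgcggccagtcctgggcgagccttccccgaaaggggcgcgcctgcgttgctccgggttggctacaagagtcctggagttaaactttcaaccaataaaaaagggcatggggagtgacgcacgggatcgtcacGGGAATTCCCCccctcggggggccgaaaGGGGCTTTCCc
Rela, chr19:5637291-5637540, plus strand: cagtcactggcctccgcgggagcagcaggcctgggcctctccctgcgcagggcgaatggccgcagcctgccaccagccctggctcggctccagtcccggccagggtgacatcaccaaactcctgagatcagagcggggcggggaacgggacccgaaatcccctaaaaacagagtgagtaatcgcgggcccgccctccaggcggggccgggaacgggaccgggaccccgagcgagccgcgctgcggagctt
Nfkbia, chr12:55492648-55492897, minus strand: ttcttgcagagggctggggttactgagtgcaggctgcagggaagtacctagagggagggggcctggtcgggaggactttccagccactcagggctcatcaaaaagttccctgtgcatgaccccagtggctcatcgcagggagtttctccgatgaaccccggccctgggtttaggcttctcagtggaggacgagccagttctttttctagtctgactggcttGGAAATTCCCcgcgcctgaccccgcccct

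The NF-κB consensus, searched on both strands over the whole windows, was found in 7 of the 10 windows, which belong to 5 of the 7 genes. Of all 21263 windows of protein-coding genes 12% held it, as did 13.4% of those with an IL-4 peak within 1 kb of the start. Every window of Nfkb2 held a match, and its last pair of windows overlap, so windows are not independent counts. The share per gene was not computed over all genes. The shorter motif GGGNNTTCC, which overlaps the consensus in part but is not nested in it, was found in 4 of the 10 windows. Of all windows 6.30% held GGGNNTTCC. In Rel and at the first start of Nfkb2 a pair of overlapping matches stands at 1 place, so these are single sites. Nfkb2 also has GGGACTTTCC at chr19:46305705-46305714, which lies in the windows of its last pair of starts. A match describes letters in a window and does not show that the factor binds there.

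The IL-4 peak covered 1 of the 2 NF-κB matches at Tnfaip3 and the site at Rel, and lay beside the matches at Nfkbie and Nfkb2. At Tnfaip3 the summit fell inside the match GGAAATCCCC, which spans 12 to 3 bases before the start, and the other match, GGGACACCCC, lay 9 bp outside the peak. At Rel the peak covered the match and the summit was 18 bp away from it. At Nfkbie the peak began 143 bp beyond the match and at the first start of Nfkb2 it ended 49 bp short of it. At Nfkbia the nearest IL-4 peak was 4975 bp from the match, and the nearest untreated peak 23506 bp. The untreated peak closest to a match in any of the 5 genes was 4009 bp away, at Rel.

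Of the other motifs searched, on both strands, only the SP and KLF box was in most of these promoters. The STAT6 form of the STAT motif, TTC and GAA with 4 free bases between them, was found in the window of 1 of the 7 genes, the start of Tnfaip3, and in 6.35% of all windows. The form TTCNNNGAA of other STAT proteins was found in 1 gene, Nfkb2, and in 7.69% of windows. The PU.1 core GAGGAA, of the factor that marks macrophages, was found in Rel alone, against 27.4% of windows, and TATAAA in Tnfaip3 and Nfkbia, against 12.6%. The SP and KLF box GGGCGG was found in 7 of the 10 windows, from 6 genes, against 46.2% of all windows and 62.6% of those with an IL-4 peak within 1 kb of the start.

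More of these genes had a peak at an end with IL-4 than without it. A gene-end peak is here one whose summit lies no more than 1 kb from an annotated gene end, on either side. With IL-4, 7 of the 10 genes had one, against 49.3% of all protein-coding genes, and without it 2 of 10, against 22.7%. By class, 6 genes had one with IL-4 only (35.5% of all genes), Rela had one under both conditions (13.8%), Nfkb2 had an untreated one only (8.93%), and Nfkbia and Ikbkb had neither (41.8%). Counting only peaks with a q of at most 0.05, 6 of 10 genes had one with IL-4, where 18.3% of all genes did, and 0 of 10 untreated, where 4.02% did. The 6 were Relb, Rel, Rela, Nfkbib, Nfkbie and Tnfaip3. Fragments are the tagged DNA pieces over a peak's summit, recovered from the fold and p of the authors' peak caller, and q is the caller's p adjusted over the whole library. The lowest background of the untreated library was 1.46 times that of the IL-4 library. Its list began at 4 fragments and the other at 3. Counting only peaks of at least 4 fragments left 7 and 2 of the 10 genes, against 41.5% and 22.7% of all genes. This q needed at least 6 fragments at the summit with IL-4 and 7 untreated. The untreated count moved with the window, to 1 gene at 500 bp and 5 at 3 kb, where 13.3% and 46.2% of all genes had one. With IL-4 it was 6 at 500 bp and 8 at 3 kb, where 36.6% and 73.5% of all genes had one.

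Counted at transcription starts, the untreated list held none. The IL-4 list had a peak within 1 kb of a listed start for 6 of the 7 genes with a listed start, against 43.3% of all 17492 such genes, and the untreated list for 0 of 7, against 15.6%. All 6 passed a q of at most 0.05 with IL-4, where 18.1% of all genes did. The 6 were Nfkb2, Rela, Rel, Nfkbib, Nfkbie and Tnfaip3, and Nfkbia was the one without. Their peaks at that q rested on 6 to 8 fragments each. The count at starts was added after the data were seen.

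Promoters rich in CG dinucleotides more often had an IL-4 peak over the whole genome, and most of these promoters are of that kind. The 10 windows held 6 to 42 CG dinucleotides, with a median of 20, against a median of 13 over all windows. An IL-4 peak lay within 1 kb of the start for 17.2% of windows with 0 to 4 CG, 36.0% with 5 to 14, 55.9% with 15 to 24 and 62.4% with 25 or more. In the untreated list the same shares were 10.1%, 13.9%, 16.9% and 18.2%. The part of CG content in the members' counts was not tested.

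**Figure D1:**
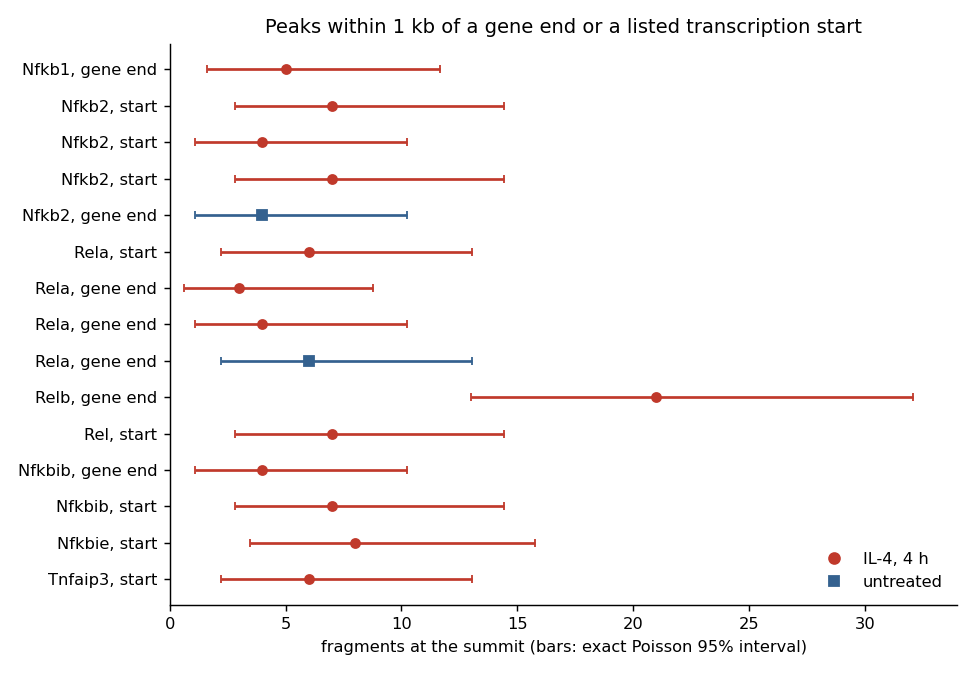
Fragments at the summit of each peak within 1 kb of a gene end or a listed start of the 10 genes (x axis), 1 row per peak, with exact Poisson 95% intervals as bars, IL-4 as circles and untreated as squares. The Relb peak, with 21 fragments, stands apart from the other 14 peaks, which had 3 to 8, and 2 of all 15 peaks are untreated.

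Relb, encoding the subunit of the non-canonical pathway that pairs with p52, had the strongest peak of the group at a gene end. It lay on chromosome 7 from 19628376 to 19629490, inside the gene, with its summit 649 bp from the annotated end at 19629438. It was 1115 bp wide and rested on 21 fragments (exact Poisson 95% interval 13.0 to 32.1, counting error only), at a −log10 q of 11.3. Of the 10790 genes with an IL-4 gene-end peak, 84 (0.778%), Relb included, had one with a −log10 q at least that high. The untreated list had no peak there. From the background at this site, scaled by the 1.46 times higher background of the untreated library, up to 6 untreated fragments could stand unlisted. The untreated peak closest to this end had 4 fragments and lay 4208 bp outside it. Inside Relb the untreated list had 1 peak, of 6 fragments (2.2 to 13.1), 6752 bp from the opposite end. The strand of Relb is not in the tables used, so the end is not called its start.

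Rela, encoding p65, the main activating subunit of the canonical pathway, had an IL-4 peak at its start and peaks of both lists at its other end. The start peak, on chromosome 19 from 5637323 to 5637609, had 6 fragments (2.2 to 13.1) at the summit and 1.84 as its −log10 q, and its summit lay 205 bp before the listed start. The untreated list had no peak there, where up to 3 fragments could stand unlisted. At the 3′ end the lists overlapped, with 6 fragments untreated at a −log10 q of 1.11 and 3 with IL-4 at 0.393. A further IL-4 peak of 4 fragments lay 644 bp past that end. The 3′ end of Rela was the only gene end of the group with a peak in both lists, and neither peak passed a q of 0.05.

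Rel, encoding c-Rel, a subunit prominent in blood cells, had an IL-4-only peak across its start. It lay on chromosome 11 from 23770816 to 23771636, was 821 bp wide, and had 7 fragments (2.81 to 14.4) at a −log10 q of 2.38, with the summit 64 bp before the start. Up to 3 untreated fragments could stand unlisted at this site. Away from the ends, Rel had 3 untreated peaks with a q of at most 0.05, of 8, 7 and 7 fragments, more than any other member. The one of 8 fragments lay inside the neighbouring gene Pus10, and the other 2 lay 15505 and 22398 bp beyond the start. With IL-4 there was a peak of 6 fragments 19549 bp beyond the start, and it overlapped none of these.

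Nfkb2, encoding p100, the precursor of p52, had IL-4 peaks at its listed starts that the gene-end count missed. Its RefSeq gene record begins at 46300994 on chromosome 19, whereas the 3 listed starts lie at 46304737, 46305695 and 46305930. An IL-4 peak from 46304362 to 46304649 had 7 fragments (2.81 to 14.4), a −log10 q of 1.67 and a summit 231 bp before the first listed start. A second, from 46305876 to 46306186, also had 7 fragments, with a −log10 q of 1.57 and its summit 76 bp after the last listed start. A weaker peak of 4 fragments lay 247 bp after the first start. The untreated list had none of these, with up to 4 fragments unlisted at each of the stronger pair, and its single gene-end peak was one of 4 fragments at the 3′ end, shared with the neighbouring gene Psd.

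Nfkb1, encoding p105, the precursor of p50, had a weak gene-end peak with IL-4 only. It lay on chromosome 3 from 135691230 to 135691599, 479 bp inside the end at 135691969, with 5 fragments (1.62 to 11.7) at the summit and 1.26 as its −log10 q, short of a q of 0.05. At the same end, weaker peaks lay outside the 1 kb window in both lists, 1273 bp out with 3 fragments with IL-4 and 1602 bp out with 4 fragments untreated, and these did not overlap. Inside the gene, there was an untreated peak of 7 fragments at a −log10 q of 1.57 and an IL-4 one of 6 at 1.83, at different positions. The 2 other IL-4 peaks past a q of 0.05 lay 11987 and 29270 bp outside that end, with 6 fragments each.

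Of the inhibitors, Nfkbib and Nfkbie had IL-4-only peaks at their starts and Nfkbia had none at either end. Nfkbib, encoding IκBβ, had its peak on chromosome 7 from 28766184 to 28766722, with 7 fragments (2.81 to 14.4), a −log10 q of 2.58 and the summit 297 bp after the start. The neighbouring gene Sirt2 has an annotated end within 1 kb of this summit. A separate untreated peak of 7 fragments, at a −log10 q of 1.57, lay 1689 bp inside Nfkbib from the same start. At its 3′ side Nfkbib had an IL-4 peak of 4 fragments 530 bp outside the gene.

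Nfkbie, encoding IκBε, had an IL-4 peak on chromosome 17 from 45555746 to 45555913, with 8 fragments (3.45 to 15.8), a −log10 q of 2.2 and its summit 123 bp after the start. Up to 4 untreated fragments could stand unlisted there, and the untreated list had no peak inside Nfkbie or within 1 kb of its ends. Nfkbia, encoding IκBα, the main inhibitor and an NF-κB target, had no peak inside the gene in either list. Its strongest peak, from IL-4 cells, lay 6374 bp from the 3′ end on chromosome 12 from 55482953 to 55483146, with 6 fragments (2.2 to 13.1) at the summit and 1.84 as its −log10 q. Its 3 untreated peaks had 4 fragments each, the lowest number in that list.

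Ikbkb, encoding the catalytic kinase IKKβ, had no gene-end peak in either list, and Tnfaip3 had one with IL-4 only. Ikbkb had an IL-4 peak of 5 fragments at 1163 bp inside one end, just beyond the 1 kb window. Its strongest peak lay inside the gene, on chromosome 8 from 22681280 to 22681431, with 7 fragments (2.81 to 14.4) at the summit and 2.58 as its −log10 q with IL-4. The untreated list had 1 peak past a q of 0.05, of 7 fragments, 3462 bp outside the other end. Tnfaip3 encodes A20, an ubiquitin-editing enzyme that shuts the pathway off. Its peak, on chromosome 10 from 19015335 to 19015517, had 6 fragments (2.2 to 13.1) at the summit and 1.84 as its −log10 q, with the summit 7 bp before the start. The second listed start of Tnfaip3 had no peak of either list within 1 kb.

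The peaks at ends or starts had a greater median width and more fragments than the other IL-4 peaks around these genes. The 13 IL-4 peaks within 1 kb of an end or a listed start had a median width of 288 bp and a median of 6 fragments. The other 143 had medians of 165 bp and 4 fragments. Widths ranged from 139 to 1115 bp in the former and from 138 to 891 bp in the latter. The whole IL-4 list had medians of 164 bp and 4 fragments. Over the 10790 genes with an IL-4 gene-end peak, the strongest such peak of each gene had a median of 5 fragments. The same split by place was not made over all genes, so it is not shown to be particular to these genes.

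**Figure D2:**
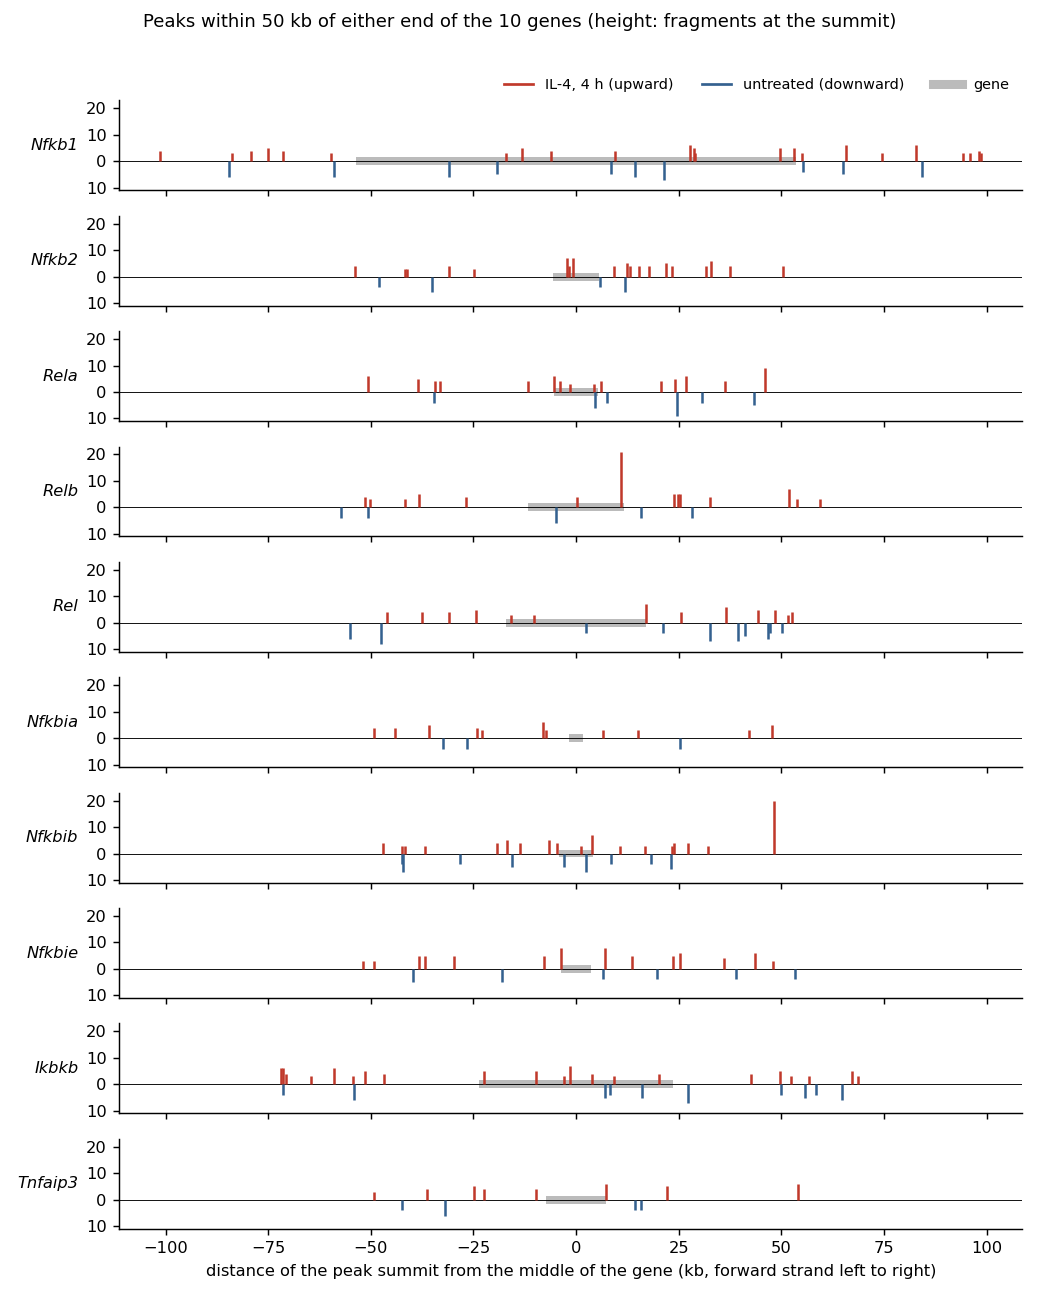
Peaks around each of the 10 genes, by distance of the summit from the middle of the gene in kb (x axis) and fragments at the summit (y axis), IL-4 upward and untreated downward, with the gene as a grey bar. The 21-fragment peak at the end of Relb and the 20-fragment peak 44072 bp from Nfkbib, inside Hnrnpl, exceed all others, which had 3 to 9 fragments.

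Every one of the 10 genes had more IL-4 than untreated peaks within 50 kb, as did 85.1% of all genes. The IL-4 list is the longer one by 1.61 times, and around these genes the ratio of the summed peaks was 2.33. At least 2 times as many IL-4 as untreated peaks were found for 9 of the 10, against 44.1% of all genes. The median log2 ratio of (IL-4 peaks + 1) to (untreated peaks + 1) was 1.11 over the members and 0.81 over all genes, with an interquartile range of 0.32 to 1.26. With the IL-4 list shortened to the length of the untreated one these medians were 0.62 and 0.17, and with peaks of at least 4 fragments only they were 0.73 and 0.32.

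Nfkb2 had the highest ratio of the group, with 19 IL-4 and 4 untreated peaks (log2 ratio 2.0), and 6.73% of all genes had one at or above it. Nfkbia followed with 11 and 3 (1.58), then Relb with 14 and 5 (1.32) and Rela with 15 and 6 (1.19). Nfkb1 had 23 and 10 peaks (1.13), Nfkbie 14 and 6 (1.10) and Ikbkb 21 and 10 (1.00). These genes differ in length, and Nfkb1, with the most IL-4 peaks, has the widest window. Nfkbib had 18 and 9 (0.93) and Tnfaip3 8 and 4 (0.85). Rel was lowest, with 13 and 10 (0.35), and 74.6% of all genes had a ratio at or above it. Per 100 kb of window, Tnfaip3 had the fewest IL-4 peaks, 6.99, and Nfkb2 the most, 17.1, around a median of 12.3 for the members and 10.8 for all genes. The same density of untreated peaks had a median of 5.21 for the members and 5.53 for all genes.

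**Figure D3:**
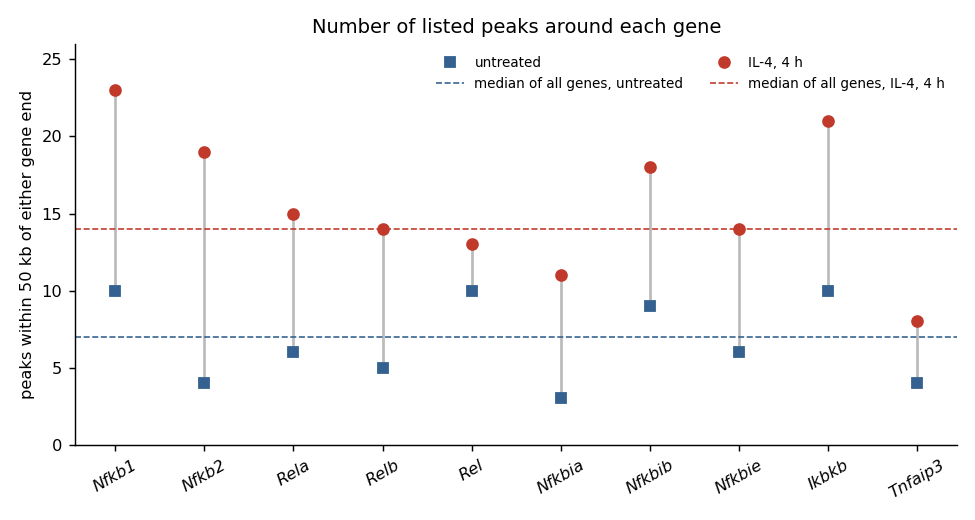
Number of listed peaks within 50 kb of either end of each gene (y axis), IL-4 as circles and untreated as squares, joined by a line, with dashed lines at the medians of all protein-coding genes. All 10 circles lie above their squares, with the shortest line at Rel, 13 against 10, and the longest at Nfkb2, 19 against 4.

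Most peaks around these genes were weak. The untreated peaks had 4 to 9 fragments with a median of 5, and 32 of 67 (47.8%) had 4, the lowest number in that list. The IL-4 peaks had 3 to 21 fragments with a median of 4, and 45 of 156 (28.8%) had 3, the lowest in that list. Over the whole lists 32.5% and 32.3% of peaks stood at these lowest numbers. A q of at most 0.05 was reached by 8 untreated peaks (11.9%) and 26 IL-4 peaks (16.7%), against 14.6% and 12.5% of the whole lists.

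Many of the stronger peaks belonged to neighbours by position. Of the 26 IL-4 peaks with a q of at most 0.05, 15 had a member as the gene with the nearest end, and of the 8 untreated ones 5 did. The IL-4 peak with the highest −log10 q in all the windows, 12.5, had 20 fragments (12.2 to 30.9) and lay in the window of Nfkbib but inside Hnrnpl, a gene of an RNA-binding protein. The strongest peaks in the window of Rela were one of 9 untreated fragments inside Pcnx3 and one of 9 IL-4 fragments at an end shared by Pcnx3 and Map3k11. In the window of Nfkbie, 8 IL-4 fragments lay inside Slc35b2, and 6 each lay within 1 kb of an end of Slc29a1 and of Mymx. In that of Relb, 7 IL-4 fragments lay 1804 bp from Apoc2, and in that of Nfkb2, 6 lay 932 bp from Cuedc2. Around Ikbkb, 3 IL-4 peaks of 6 fragments each had Dkk4 as the gene with the nearest end. The second IL-4 peak of Tnfaip3 at this q, also of 6 fragments, lay 46879 bp before its start with no gene end nearer. Inside the members themselves lay 13 of the 67 untreated and 29 of the 156 IL-4 peaks.

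The 2 lists shared few of these sites. Of the untreated peaks 6 of 67 (8.96%) overlapped an IL-4 peak, and of the IL-4 peaks 5 of 156 (3.21%) overlapped an untreated one, against 8.73% and 5.42% over the whole lists. They lay around 3 genes. Besides the 3′ end of Rela, the shared sites were inside Kat5 near Rela, inside Fbxo17 near Nfkbib, and inside Polb and between genes near Ikbkb. No pair of overlapping peaks passed a q of 0.05 in both lists.

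The other genes of the pathway also had more gene-end peaks in the IL-4 list. There were 57 such genes, all of them measured, of which 37 (64.9%) had one with IL-4 and 16 (28.1%) untreated, against 49.3% and 22.7% of all genes. For 24 of them it was found with IL-4 only, for 13 under both conditions, for 3 untreated only and for 17 under neither. At a q of at most 0.05, 24 of 57 (42.1%) had one with IL-4 and 2 of 57 (3.51%) untreated. The 2 were Irak3 and Nkiras1, with 7 untreated fragments each, and Nkiras1 had an overlapping IL-4 peak of 6. The Irak3 peak lay 59935 bp from its listed start, and Rpl15 has an end within 1 kb of the Nkiras1 summits. Irak3 and Nkiras1 were named after their values were seen. The shares of all genes at that q were 18.3% and 4.02%.

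Adaptors and ubiquitin ligases held the strongest of these peaks. Rnf31, encoding the catalytic subunit HOIP of the linear ubiquitin ligase, carried 22 IL-4 fragments (13.8 to 33.3) between 55591098 and 55591686 on chromosome 14, with a −log10 q of 14.1, and an untreated peak of 5 overlapped it. Psme2 has an end within 1 kb of that summit. Malt1 and Bcl10, partners in the complex that links antigen receptors to the pathway, had 16 (9.15 to 26) and 14 (7.65 to 23.5), with no overlapping untreated peak. Irak4, a kinase below the Toll-like receptors, had 10 fragments and an overlapping untreated peak of 6. Pus7l has an end within 1 kb of both Irak4 summits. Rbck1, a further subunit gene of the linear ubiquitin ligase, had 9, and Ripk1, a kinase gene of TNF receptor signalling, had 8. Serpinb6a has an end within 1 kb of the Ripk1 summit. At a q of at most 0.05, 11 of 21 genes of this group had an IL-4 gene-end peak and 1 of 21 an untreated one. Of all genes, 18.3% and 4.02% did.

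Among kinases upstream of NF-κB, Map3k8 had 11 IL-4 fragments (5.49 to 19.7), Ikbke 9, and Map3k7, encoding TAK1, and Tbk1 8 each, and none of these had an overlapping untreated peak. Xpot has an end within 1 kb of the Tbk1 summit. Of the 11 genes of the IκB kinase complex and its kinases, 5 had an IL-4 gene-end peak at a q of at most 0.05 and 0 an untreated one. Over all genes these shares were 18.3% and 4.02%. The 5 were Map3k7, Map3k8, Map3k14, Tbk1 and Ikbke. Chuk and Ikbkg, the genes of the complex itself in this group, were not among them. Cyld, encoding a deubiquitinase that restrains the pathway, had 11 fragments (5.49 to 19.7) at a −log10 q of 6.45, and 2 of 8 deubiquitinases and A20 partners had an IL-4 peak at that threshold. Of the 6 genes grouped as other IκB proteins, 3 had an IL-4 one at that threshold, Nfkbil1, Nkiras1 and Nkiras2. Only Nkiras1 of them had an untreated one. Nkiras1 and Nkiras2 encode proteins that bind IκB and are not IκB proteins themselves. Bcl3, Nfkbid and Nfkbiz had no gene-end peak at that threshold in either list. Of the receptors 3 of 11 had an IL-4 one at that threshold. With so few genes, 2 of 8 and 3 of 11 lie near the 18.3% of all genes. The strongest receptor peak lay at the 3′ end of Tnfrsf11a, the RANK gene, 69517 bp from its listed start. It had 8 IL-4 fragments and an overlapping untreated peak of 5.

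**Figure D4:**
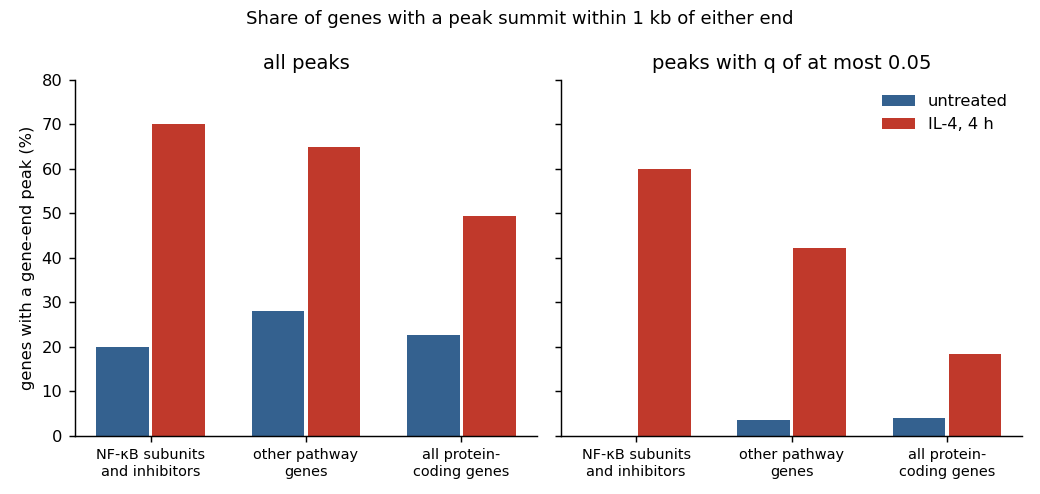
Share of genes with a gene-end peak (y axis, %) in the untreated and the IL-4 list, over all peaks (left) and peaks with a q of at most 0.05 (right), for the 10 members, the 57 other pathway genes and all 21887 protein-coding genes. At a q of at most 0.05 the IL-4 bars stand at 60%, 42.1% and 18.3%, and the untreated bars at 0%, 3.51% and 4.02%.

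Peaks do not measure expression, so they are a poor check of the labelled cell type. Of 10 macrophage genes, among them Csf1r and Spi1, 6 had an IL-4 gene-end peak and 1 an untreated one over all peaks, and 2 and 0 did at a q of at most 0.05. The shares of all genes were 49.3% and 22.7% over all peaks and 18.3% and 4.02% at that q, so these counts lie near the background and give no check of the cell type. Of 25 marker genes of neutrophils, T cells, B cells, dendritic cells and erythroid cells, 13 and 8 did over all peaks, and 1 and 0 at that q. The median log2 ratio of peak numbers within 50 kb was 1.42 for the macrophage genes and 0.86 for the 25, against 0.81 for all genes. By cell type it was 1.17 for T cells, 1.00 for neutrophils, 0.70 for B cells, 0.42 for dendritic cells and 0.29 for erythroid cells. These ratios rest on 5 genes per type and give no check of the cell type either.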

How the data were processed

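Peaks of 2 CUT&Tag libraries, 1 untreated and 1 given IL-4, were compared without a test. The authors deposited 1 narrowPeak list per library. Per the submitters' processing notes, the tools were DiffBind, MACS2 2.2.7.1 and Bowtie 0.12.8 and the build was mm10, with roles and order not given. How duplicates were treated and whether a control was used is not stated there. In the deposited lists the fold is a ratio of summit fragments to local background, and the −log10 p and −log10 q are the caller's own values. The deposited score is 10 times the −log10 p, decimals dropped. These values are the authors' and describe peaks within a list.

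Fragments n and background were solved from fold = (n + 1)/(background + 1) and p = P(X > n), Poisson, which gave whole n within 0.01 of the −log10 p for 100% of entries. The solver and the peak counter were tested on simulated data. Total reads were not used. The lowest background, 0.936 untreated and 0.643 with IL-4, stands for depth. PCR fragments are not independent molecules, so intervals cover counting error only. Several summits of 1 interval were reduced to the one with the highest −log10 q (203 untreated and 654 IL-4 entries removed). The number that could stand unlisted is the largest n with p above 0.01 at the IL-4 background times 1.46, an estimate. Overlap needed 1 bp. Genes and promoters are from RefSeq tables of GRCm38.p6, the build of mm10.

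The members and lists were chosen with earlier results of these data known. Named were all 10 members with their gene-end and strongest peaks, neighbours sharing them, and the 12 other pathway genes with the highest −log10 q at a gene end. Neighbours with an end within 1 kb of the peaks of those 12 were named too. Python 3.11.15, pandas 2.3.3, scipy 1.17.1 and matplotlib 3.10.9 were used.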

Additional observations from a re-analysis of the deposited data

How the results depend on the processing

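The count of members with an IL-4 gene-end peak, 7, kept within 1.5 times of that value under every alternative run. The share of all genes moved more, so the gap between members and all genes was not constant. That share was 49.3% in the main setting, 36.6% at 500 bp, where 6 members had one, and 73.5% at 3 kb, where 8 did. The count of untreated members, 2, was 1 with a 500 bp window, 5 with 3 kb, 0 at a q of at most 0.05 and 0 at listed starts. Of the other pathway genes, 7 (500 bp), 35 (3 kb) and 2 (q of at most 0.05) were found untreated in place of 16, and 24 at that q with IL-4 in place of 37. Peak numbers around the members were 17 untreated and 40 with IL-4 within 10 kb, 135 and 284 within 100 kb, and 8 and 26 at a q of at most 0.05. Equal list lengths gave 96 IL-4 peaks in place of 156 and a median log2 ratio of 0.62 in place of 1.11, with 0.17 in place of 0.81 over all genes, and a minimum of 4 fragments gave 0.73 and 0.32. Shared sites, 6 untreated and 5 IL-4, became 3 and 3 with overlap of at least 50% of the shorter peak, 0 and 0 at that q, and 2 and 2 with equal lists. Shares of the whole lists were not computed under these overlap settings, so these counts describe no trait of the members. Smaller windows, higher thresholds and shorter lists hold fewer peaks by construction. Overlap with equal lists and the count at starts were added after the data were seen. No paired analysis was possible because each group had 1 library, and no replicate could be left out. Most peaks rest on 3 to 6 fragments, so a site missing from a list is not shown to lack signal.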
